A study of Homo sapiens with 36 samples.

Results

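RNA that came down with an antibody to YTHDF1 was compared with RNA that came down with an antibody to YTHDF2, both from HEK293T cells that expressed YTHDF1 fused to ADAR. HEK293T is a human embryonic kidney line. The libraries were taken by line and antibody as labelled, and they are 6 of the 36 libraries of the series: 3 of YTHDF1 RIP (RNA immunoprecipitation) and 3 of YTHDF2 RIP. All 6 came from cells with the YTHDF1-ADAR genotype, in which the fusion was switched on by doxycycline at 1 ug/mL for 24 h, so the fusion was present in both arms. The fusion is made beside the cell's own YTHDF1, and whether the YTHDF1 antibody also took down the fusion protein was not tested here. The remaining 30 libraries are inputs, YTHDF3 RIP, and RIP from cells with YTHDF2-ADAR or YTHDF3-ADAR. No input entered this comparison, so a difference is one between 2 RIP fractions and not enrichment over the lysate.

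YTHDF1 and YTHDF2 are cytoplasmic proteins with a YTH domain that reads N6-methyladenosine (m6A), a methyl mark that the METTL3-METTL14 complex puts on mRNA, mostly in long internal exons and near stop codons. YTHDF2 is best known for bringing the CCR4-NOT deadenylase to marked mRNAs, and YTHDF1 was first described as promoting their translation; how far the YTHDF proteins share targets has been debated. ADAR enzymes turn adenosine into inosine, read as guanosine, so an ADAR fusion leaves edited sites on RNAs near which it sat. The comparison asks whether, in 1 line, the 2 readers came down with different RNAs.

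The YTHDF1 RIP libraries held 24.2, 22.7 and 33.5 M gene counts and the YTHDF2 RIP libraries 27.2, 26.6 and 15.9 M. Levels are CPM (counts scaled to library size by TMM), and log2 fold changes are YTHDF1 RIP over YTHDF2 RIP with their standard error. YTHDF2 RIP replicate 3 stood apart from its group: 82.8% of its counts lay in protein-coding genes, against 90.0% and 90.3% in replicates 1 and 2, and snoRNAs and scaRNAs took 0.645%, against 0.174% and 0.128%. YTHDF1 RIP replicate 3 also stood apart, since its log2 CPM correlated with YTHDF2 RIP replicates 1 and 2 (r = 0.953 and 0.961) almost as closely as with its own group (0.968 and 0.972, across genes). Results are therefore given for all 6 libraries, and counts also without YTHDF2 RIP replicate 3 and without both replicates 3; the last of these was chosen after the data were seen. Markers of HEK293T cells summed to 2449, 2882 and 2716 CPM in YTHDF1 RIP and 1847, 2873 and 1390.0 CPM in YTHDF2 RIP (8 of 8 markers with enough counts), while hepatocyte markers had 0 of 4 with enough counts and blood markers 2 of 6, at 2.17 to 2.90 and 3.16 to 4.52 CPM in sum.

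The RNAs in the fractions differed widely. Of 23546 genes with enough counts, 4993 (21.2%) were higher in YTHDF1 RIP and 3864 (16.4%) were lower, by edgeR's quasi-likelihood test at a Benjamini-Hochberg-adjusted p of 0.05, 37.6% in either direction. Without YTHDF2 RIP replicate 3, 4967 (20.7%) were higher and 4296 (17.9%) lower of 24040 genes (38.5% together), and 4532 (19.2%) and 3472 (14.7%) of the 23546 genes were called in the same direction in both fits. Without both replicates 3 the counts were 7258 (30.6%) and 6962 (29.3%) of 23727 (59.9% together). The counts fell most without YTHDF1 RIP replicate 1, to 2874 higher and 2083 lower genes. The lower genes numbered 2090 without YTHDF1 RIP replicate 2 and 2483 without YTHDF2 RIP replicate 1. In a bulk sample, fewer cells that hold an RNA and less of it per cell cannot be told apart, and every level is relative to the rest of its library.

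YTHDF1, YTHDF2 and the ADAR genes were read first; which ADAR gene the fusion carries is not given in the sources used here. YTHDF1 (ENSG00000149658, GRCh38 chr 20 63195429 to 63216139) had 3918, 3589 and 2481 CPM in YTHDF1 RIP, against 1276, 1399 and 837 CPM in YTHDF2 RIP. YTHDF1 was thus higher in each YTHDF1 RIP library than in any YTHDF2 RIP library, with a log2 fold change of 1.51 ± 0.31 (adjusted p = 0.00602, edgeR) and 1.30 without YTHDF2 RIP replicate 3. ADARB1, the gene of the editing enzyme ADAR2, had 3236, 3043 and 2421 CPM in YTHDF1 RIP, against 949.5, 1158 and 613 CPM in YTHDF2 RIP. It followed YTHDF1, at 1.68 ± 0.31 (adjusted p = 0.00373, edgeR). Counts do not tell a fusion transcript from the cell's own. YTHDF2 had 356, 316 and 366 CPM in YTHDF1 RIP, against 286, 265 and 322 CPM in YTHDF2 RIP, and these values of the groups overlapped (0.25 ± 0.19, adjusted p = 0.337, edgeR). ADAR, the gene of ADAR1, lay at 0.39 ± 0.24 (adjusted p = 0.223, edgeR), with 606 to 780.0 CPM in YTHDF1 RIP and 429 to 623 CPM in YTHDF2 RIP.

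Of the 12 genes most shifted toward YTHDF1 RIP by the naming rule, 9 were nuclear protein-coding genes: SF3B5, PPP2R3B, CHAC1, LSM10, MRPL36, FKBPL, FOXA1, NINJ1 and CCDC71, each with a log2 fold change above 2. SF3B5 (ENSG00000169976, GRCh38 chr 6 144094884 to 144095573), a small subunit of the SF3B splicing complex, had 91.5, 81.1 and 94.8 CPM in YTHDF1 RIP, against 10.8, 11.4 and 3.93 CPM in YTHDF2 RIP. Its log2 fold change was 3.35 ± 0.37 and 3.0 without YTHDF2 RIP replicate 3, its lowest library. PPP2R3B (ENSG00000167393, GRCh38 chr X 333933 to 386955), a regulatory subunit of protein phosphatase 2A, had 238, 244 and 218 CPM in YTHDF1 RIP, against 31.9, 33.1 and 26.9 CPM in YTHDF2 RIP (2.93 ± 0.19). It lies in the pseudoautosomal region, which the reference holds on both sex chromosomes, so its level is uncertain. CHAC1 (ENSG00000128965, GRCh38 chr 15 40952962 to 40956512), an enzyme that breaks down glutathione, had 99.2, 129 and 29.0 CPM in YTHDF1 RIP, against 10.4, 9.89 and 13.9 CPM in YTHDF2 RIP (2.91 ± 0.48), and YTHDF1 RIP replicate 3 lay well below its 2 fellow libraries. LSM10 (ENSG00000181817, GRCh38 chr 1 36391238 to 36397908), a ring subunit of the U7 particle that trims histone mRNAs, had 88.4, 83.2 and 86.0 CPM in YTHDF1 RIP, against 11.9, 14.9 and 8.02 CPM in YTHDF2 RIP (2.88 ± 0.25). The LSM10 libraries of either group lay close together and far from those of the other group. FKBPL, an immunophilin-like partner of HSP90, had 98.7, 89.2 and 89.3 CPM in YTHDF1 RIP, against 18.5, 17.3 and 7.58 CPM in YTHDF2 RIP (2.67 ± 0.32). FOXA1, a forkhead factor that opens chromatin, had 73.5, 66.8 and 38.5 CPM in YTHDF1 RIP, against 9.94, 11.7 and 7.02 CPM in YTHDF2 RIP (2.64 ± 0.30). NINJ1, which encodes a membrane protein that acts in plasma membrane rupture, had 45.2, 47.5 and 33.0 CPM in YTHDF1 RIP, against 7.08, 9.29 and 3.98 CPM in YTHDF2 RIP (2.62 ± 0.32). In all 3 of these genes the group ranges stood apart, and YTHDF2 RIP replicate 3 was the lowest library. CCDC71 had 227, 214 and 244 CPM in YTHDF1 RIP, against 47.2, 55.9 and 19.7 CPM in YTHDF2 RIP (2.48 ± 0.35). The adjusted p of the 9 genes ran from 0.00112 to 0.00266 (edgeR), and they kept their calls with each of the 6 libraries left out.

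**Figure D1:**
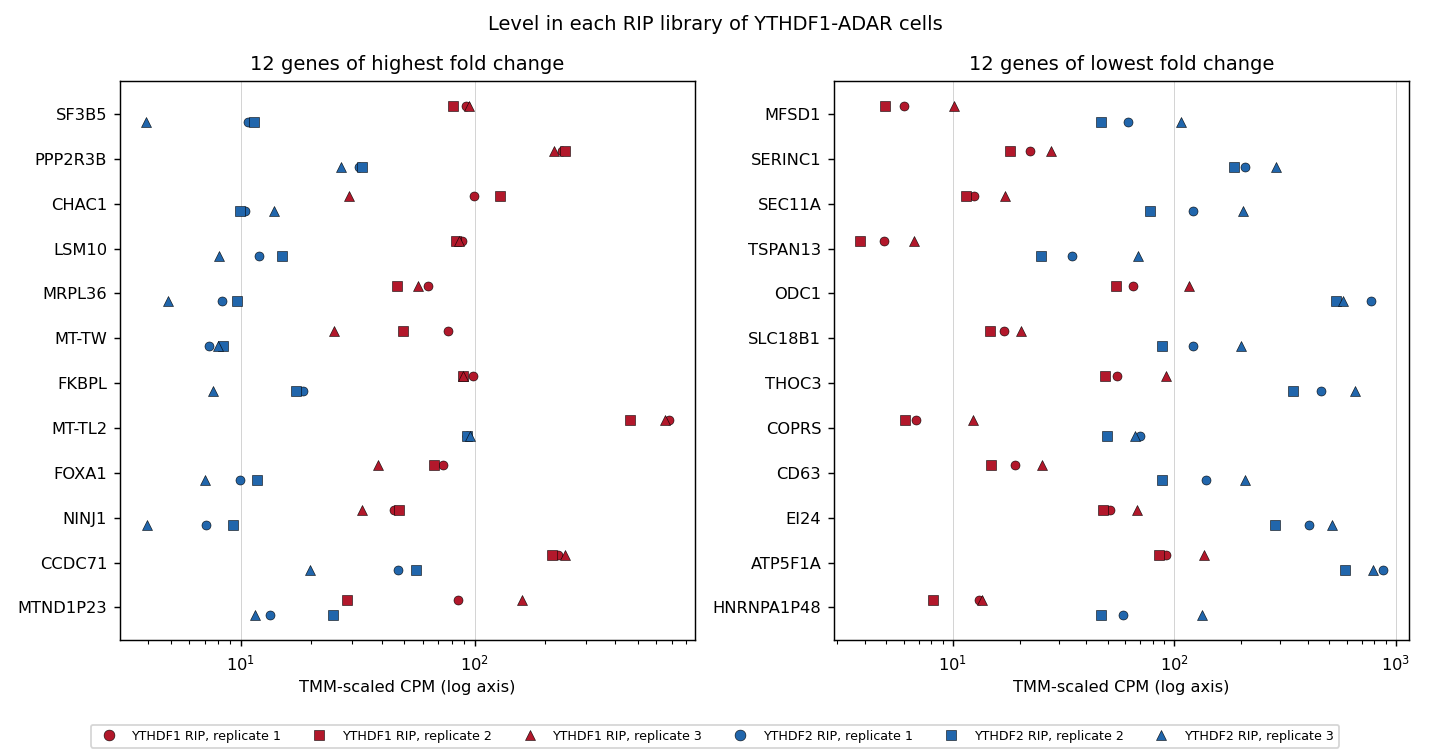
TMM-scaled CPM on a log axis of the 12 genes with the highest (left) and the 12 with the lowest (right) log2 fold changes in each library. Red marks are YTHDF1 RIP and blue marks YTHDF2 RIP, with circles, squares and triangles for replicates 1, 2 and 3. The colours do not overlap for any of the 24 genes, which is a condition of the rule that chose them, and the red triangle of CHAC1 lies at 29.0 CPM, far to the left of the other 2 red marks. The marks of MTND1P23 are the most scattered, with a red square at 28.4 CPM just above a blue square at 24.9 CPM.

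Among the 12 highest genes were also MT-TW and MT-TL2, tRNAs encoded by mitochondria, whose RNA is made and translated inside the organelle, and MTND1P23, a nuclear copy of a mitochondrial gene. MTND1P23 had 85.2, 28.4 and 159 CPM in YTHDF1 RIP, against 13.3, 24.9 and 11.5 CPM in YTHDF2 RIP (2.45 ± 0.57, adjusted p = 0.00958, edgeR). Since reads that map to several places were counted, its reads may be those of mitochondrial RNA, and its level is uncertain. Of 13 mitochondrially encoded mRNAs, 11 were higher in YTHDF1 RIP and 0 lower (median 1.62), and of 22 mitochondrial tRNAs, 21 were higher and 0 lower (median 2.24). MT-ND3, a subunit of complex I, had 1487, 982 and 1050.0 CPM in YTHDF1 RIP, against 256, 224 and 216 CPM in YTHDF2 RIP (2.34 ± 0.25). MT-ND6, another such subunit, had 1685, 952 and 1976 CPM in YTHDF1 RIP, against 328, 449 and 256 CPM in YTHDF2 RIP (2.16 ± 0.34). MT-TW, the tryptophan tRNA, had 77.0, 49.4 and 25.0 CPM in YTHDF1 RIP, against 7.30, 8.41 and 7.96 CPM in YTHDF2 RIP (2.68 ± 0.37), with YTHDF1 RIP replicate 3 lowest of its group. MT-TL2, a leucine tRNA, had 678, 463 and 654 CPM in YTHDF1 RIP, against 93.1, 92.8 and 95.7 CPM in YTHDF2 RIP (2.67 ± 0.23). MT-TK, the lysine tRNA, had 122.6, 93.1 and 81.8 CPM in YTHDF1 RIP, against 19.7, 22.4 and 14.8 CPM in YTHDF2 RIP (2.39 ± 0.24). The adjusted p of these 5 lay between 0.00112 and 0.00236 (edgeR). As a share of all counts, mitochondrial mRNAs took 3.06%, 2.0% and 2.38% in YTHDF1 RIP, against 1.06%, 1.01% and 0.561% in YTHDF2 RIP. Mitochondrial tRNA genes took 0.620%, 0.434% and 0.328%, against 0.103%, 0.0938% and 0.0984%. Reads that cross the borders of neighbouring mitochondrial genes count for each of them, so these genes are not independent of one another.

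Transcription factor mRNAs formed the broadest group on the YTHDF1 side. Of 436 ZNF zinc finger genes, 323 (74.1%) were higher in YTHDF1 RIP and 5 were lower, against 21.2% and 16.4% of all genes, with a median of 1.06. Without YTHDF2 RIP replicate 3 the counts were 318 and 11 of the same 436 (median 0.98), and 348 and 23 without both replicates 3. The summed level of these genes was 26927, 25786 and 23099 CPM in YTHDF1 RIP and 13433, 13754 and 10698 CPM in YTHDF2 RIP. Where a gene overlaps another whose own count is over 10% of its count, the unstranded counts cannot be assigned. Of the 252 ZNF genes without such a partner, 196 were higher and 3 lower. Of 83 homeobox genes, which set positional and organ identity, 55 were higher and 1 was lower (median 1.04). HOXC11 had 95.3, 87.3 and 94.4 CPM in YTHDF1 RIP, against 22.6, 27.0 and 13.1 CPM in YTHDF2 RIP (2.14 ± 0.27). NKX2-5, a heart factor, had 213, 221 and 144 CPM in YTHDF1 RIP, against 54.3, 63.6 and 26.3 CPM in YTHDF2 RIP (2.0 ± 0.33). SIX4, a factor of muscle and kidney development, had 157, 153 and 123.5 CPM in YTHDF1 RIP, against 43.6, 48.8 and 38.9 CPM in YTHDF2 RIP (1.72 ± 0.19). In all 3 of these genes each YTHDF1 RIP library lay above each YTHDF2 RIP library. Of 28 SOX and KLF genes, 18 were higher and 0 lower (median 0.67), with KLF10 at 32.6, 29.4 and 22.6 CPM in YTHDF1 RIP, against 9.64, 8.21 and 9.79 CPM in YTHDF2 RIP (1.61 ± 0.21) and KLF9 at 223, 212 and 195 CPM in YTHDF1 RIP, against 81.5, 84.0 and 60.6 CPM in YTHDF2 RIP (1.48 ± 0.20). The adjusted p of these 5 genes was at most 0.00271 (edgeR).

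Protocadherins, cell adhesion molecules whose clustered genes share exons, had the highest median among the lists of nuclear genes. Of 54 tested, 43 were higher and 0 lower (median 1.71; 46 and 0 of the same 54 without YTHDF2 RIP replicate 3). In 44 of the 54 the counts are shared with overlapping or clustered copies, and of the other 10, 7 were higher. PCDH10, which lies outside the clusters, had 262, 233 and 155 CPM in YTHDF1 RIP, against 57.5, 68.02 and 56.1 CPM in YTHDF2 RIP (1.84 ± 0.24, adjusted p = 0.00136, edgeR). The Wnt list held 14 higher (40%) and 5 lower (14.3%) of 35 genes, against 21.2% and 16.4% of all genes (median 0.41). Its 4 named members were Frizzled receptors, whose genes are a single exon block each. FZD7 had 349, 370.0 and 208 CPM in YTHDF1 RIP, against 112, 119 and 113 CPM in YTHDF2 RIP (1.43 ± 0.24). FZD2 had 71.9, 73.4 and 45.7 CPM in YTHDF1 RIP, against 24.3, 23.9 and 15.6 CPM in YTHDF2 RIP (1.58 ± 0.26). FZD9 lay at 1.66 ± 0.27 and FZD1 at 1.38 ± 0.25. The 4 Frizzled mRNAs had their lowest YTHDF1 RIP level in replicate 3. Their adjusted p ran from 0.00254 to 0.00386 (edgeR).

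Immediate-early genes, which growth signals switch on within minutes, were more often higher (16 of 30) than lower (1 of 30) in YTHDF1 RIP, with a median of 0.67. IER5, a regulator of heat shock factor activity, had 2121, 1976 and 1100.4 CPM in YTHDF1 RIP, against 571, 538 and 721 CPM in YTHDF2 RIP (1.51 ± 0.30). JUNB, a subunit of AP-1, had 86.1, 87.5 and 50.4 CPM in YTHDF1 RIP, against 22.6, 22.4 and 14.0 CPM in YTHDF2 RIP (1.92 ± 0.28). Their adjusted p was 0.00567 and 0.00179 (edgeR), and JUNB overlaps HOOK2, so its counts are uncertain. Among 23 mRNAs often described as m6A-modified, 15 were higher and 2 lower (median 0.98). BCL2, which blocks apoptosis, had 96.3, 86.7 and 72.1 CPM in YTHDF1 RIP, against 26.9, 28.1 and 29.4 CPM in YTHDF2 RIP (1.60 ± 0.18, adjusted p = 0.00112, edgeR). Within the BCL2 family 7 of 17 genes (41.2%) were higher and 2 (11.8%) lower, against 21.2% and 16.4% of all genes. BOK, a promoter of cell death, had 15.9, 19.5 and 9.21 CPM in YTHDF1 RIP, against 2.90, 3.52 and 2.82 CPM in YTHDF2 RIP (2.26 ± 0.30). BBC3, which encodes PUMA, had 47.9, 50.6 and 32.9 CPM in YTHDF1 RIP, against 22.9, 23.1 and 17.5 CPM in YTHDF2 RIP (1.05 ± 0.22), with adjusted p of 0.00142 and 0.00693 (edgeR). Both inhibitors and promoters of apoptosis were thus among the higher genes. Of 8 mRNAs often used as low-m6A controls, 1 (12.5%) was higher and 2 (25.0%) were lower, too few to set apart from the 21.2% and 16.4% of all genes (median -0.37). Without both replicates 3, 6 were lower and 1 higher (median -0.74), against 29.3% of all genes lower. Of the 8, 6 overlap other genes and are uncertain. HPRT1, a purine salvage enzyme and a common control, had 12.3, 9.83 and 23.9 CPM in YTHDF1 RIP, against 46.7, 44.3 and 48.7 CPM in YTHDF2 RIP (-1.60 ± 0.31, adjusted p = 0.00505, edgeR). RPL30 had 26.9, 21.2 and 33.5 CPM in YTHDF1 RIP, against 49.9, 40.5 and 39.1 CPM in YTHDF2 RIP (-0.67 ± 0.22, adjusted p = 0.0385, edgeR), a call that was lost with any of 4 libraries left out (adjusted p up to 0.168). RPL30 overlaps its antisense RNA and GAPDH a second annotated gene, so both are uncertain. GAPDH did not pass the test (-0.23 ± 0.38, adjusted p = 0.668), nor did ACTB (0.55 ± 0.32, adjusted p = 0.205, edgeR).

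Chromatin coregulators were higher in 18 (36%) and lower in 4 (8%) of 50 genes, against 21.2% and 16.4% of all genes (median 0.54). Without YTHDF2 RIP replicate 3 the counts were 15 and 5 (median 0.38). ARID1A and ARID1B are DNA-binding subunits of SWI/SNF remodellers. ARID1A had 773, 809 and 430.3 CPM in YTHDF1 RIP, against 261, 313 and 198 CPM in YTHDF2 RIP (1.38 ± 0.30). ARID1B had 569.5, 558 and 387 CPM in YTHDF1 RIP, against 192, 227 and 189 CPM in YTHDF2 RIP (1.32 ± 0.23), with adjusted p of 0.00741 and 0.00299 (edgeR). CREBBP, a histone acetyltransferase, had 652, 715 and 476 CPM in YTHDF1 RIP, against 252, 393 and 196 CPM in YTHDF2 RIP (1.13 ± 0.30, adjusted p = 0.0172, edgeR), with adjusted p up to 0.076 when a library was left out. SON, a splicing scaffold protein of nuclear speckles, had 1976, 1986 and 2346 CPM in YTHDF1 RIP, against 1011, 1371 and 536 CPM in YTHDF2 RIP (1.11 ± 0.35). MYC, the growth factor-driven transcription factor, had 642, 628 and 541 CPM in YTHDF1 RIP, against 383, 422 and 215 CPM in YTHDF2 RIP (0.83 ± 0.28). The groups did not overlap for either gene, and MYC shares counts with CASC11 and is uncertain. The calls of SON (adjusted p = 0.0329) and MYC (adjusted p = 0.043, edgeR) were lost with single libraries left out, with adjusted p up to 0.1 and 0.166.

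On the other side, 7 of the 12 lowest genes encode membrane proteins: SERINC1, MFSD1, CD63, TSPAN13, EI24, SLC18B1 and SEC11A, a grouping made after their values were seen. SERINC1 (ENSG00000111897, GRCh38 chr 6 122443351 to 122471807), a membrane protein named for a part in serine incorporation into lipids, had 22.2, 18.1 and 27.7 CPM in YTHDF1 RIP, against 207, 187 and 287 CPM in YTHDF2 RIP (-3.32 ± 0.26). MFSD1 (ENSG00000118855, GRCh38 chr 3 158732198 to 158829719), a lysosomal transporter, had 6.01, 4.94 and 10.1 CPM in YTHDF1 RIP, against 61.6, 46.5 and 107 CPM in YTHDF2 RIP (-3.35 ± 0.39). CD63 (ENSG00000135404, GRCh38 chr 12 55725323 to 55729707), a tetraspanin of late endosomes and exosomes, had 19.1, 14.9 and 25.3 CPM in YTHDF1 RIP, against 139, 87.8 and 209 CPM in YTHDF2 RIP (-2.87 ± 0.35). For each of the 3, the lowest YTHDF2 RIP library was over 3 times the highest YTHDF1 RIP library. TSPAN13, another tetraspanin, had 4.90, 3.81 and 6.65 CPM in YTHDF1 RIP, against 34.4, 24.9 and 68.5 CPM in YTHDF2 RIP (-3.05 ± 0.40). EI24, an endoplasmic reticulum protein of autophagy, had 51.2, 47.7 and 67.96 CPM in YTHDF1 RIP, against 407, 284 and 513 CPM in YTHDF2 RIP (-2.85 ± 0.28). ODC1 (ENSG00000115758, GRCh38 chr 2 10439968 to 10448327), the rate-limiting enzyme of polyamine synthesis, had 65.3, 54.6 and 116 CPM in YTHDF1 RIP, against 774, 536 and 579 CPM in YTHDF2 RIP (-3.0 ± 0.33). SLC18B1, a vesicular polyamine transporter, had 17.04, 14.7 and 20.4 CPM in YTHDF1 RIP, against 121, 87.7 and 199.7 CPM in YTHDF2 RIP (-2.97 ± 0.32). In both genes every YTHDF1 RIP library lay far below every YTHDF2 RIP library. THOC3, a subunit of the THO complex of mRNA export, had 54.9, 48.8 and 91.7 CPM in YTHDF1 RIP, against 461, 343 and 655 CPM in YTHDF2 RIP (-2.90 ± 0.34). THOC3 has a near-identical pseudogene and is uncertain. COPRS, a cofactor of the arginine methyltransferase PRMT5, had 6.83, 6.06 and 12.4 CPM in YTHDF1 RIP, against 70.2, 49.7 and 66.6 CPM in YTHDF2 RIP (-2.88 ± 0.31). The other lowest genes were SEC11A and ATP5F1A, described with their lists, and HNRNPA1P48 (-2.77 ± 0.41), a processed copy of HNRNPA1 whose reads may be those of the parent gene. All 12 had an adjusted p of at most 0.00186 (edgeR) and kept their calls with each library left out.

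Splicing factor, proteasome, glycolysis, ER translocon and coat lists each held more lower than higher genes. Of 42 SR splicing factors and hnRNPs, 27 were lower and 4 higher (median -1.09; 25 and 4 without YTHDF2 RIP replicate 3). HNRNPA1, an hnRNP with many processed copies and thus of uncertain level, lay at -2.29 ± 0.36. HNRNPM, a splicing regulator, had 188, 195 and 418 CPM in YTHDF1 RIP, against 1330.2, 1464 and 1018 CPM in YTHDF2 RIP (-2.25 ± 0.36), and YTHDF1 RIP replicate 3 lay above replicates 1 and 2. Of 35 proteasome subunits, 19 were lower and 0 higher (median -0.92), with PSMD2, a subunit of the regulatory particle, at 119.6, 148 and 169 CPM in YTHDF1 RIP, against 696, 512 and 679 CPM in YTHDF2 RIP (-2.11 ± 0.24). Of 17 glycolysis genes, 12 were lower and 0 higher (median -1.0), with LDHA, which makes lactate, at 111, 103 and 219 CPM in YTHDF1 RIP, against 815, 526 and 693 CPM in YTHDF2 RIP (-2.23 ± 0.34). Of 24 genes of the ER translocon and its partners, 13 were lower and 1 higher (median -1.03). SEC11A, the catalytic subunit of signal peptidase, had 12.4, 11.5 and 17.2 CPM in YTHDF1 RIP, against 122, 77.7 and 205 CPM in YTHDF2 RIP (-3.29 ± 0.37). STT3A, which transfers glycans to nascent proteins, had 57.8, 52.4 and 64.0 CPM in YTHDF1 RIP, against 243, 190.0 and 204 CPM in YTHDF2 RIP (-1.87 ± 0.19). Of 36 secretory cargo receptors and coats, 21 were lower and 3 higher (median -0.74), with SEC23A of the COPII coat at -1.98 ± 0.24 and COPB2 of the COPI coat at -1.55 ± 0.22. The named genes of these lists had an adjusted p of at most 0.00237 (edgeR). Solute carriers split evenly, with 50 higher (19.1%) and 58 lower (22.1%) of 262, against 21.2% and 16.4% of all genes (median -0.07).

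Of 83 nuclear-encoded oxidative phosphorylation genes, 21 (25.3%) were lower, against 16.4% of all genes, 5 were higher and the others did not pass the test (median -0.26; 27 and 4 without YTHDF2 RIP replicate 3, 51 and 5 without both replicates 3). ATP5F1A, the alpha subunit of ATP synthase, had 91.3, 85.3 and 136 CPM in YTHDF1 RIP, against 873, 587 and 789 CPM in YTHDF2 RIP (-2.85 ± 0.28). ATP5F1B, the beta subunit, had 191, 175 and 292 CPM in YTHDF1 RIP, against 1271, 889 and 1234 CPM in YTHDF2 RIP (-2.37 ± 0.29). Mitochondrial ribosomal proteins did not move as a block with all 6 libraries. Of 78, 17 (21.8%) were higher and 12 (15.4%) lower, near the 21.2% and 16.4% of all genes. The counts were 17 and 21 without YTHDF2 RIP replicate 3. Without both replicates 3 they were 19 and 41 (median -0.53), against 30.6% higher and 29.3% lower of all genes in that fit. MRPL36, in the large subunit, had 63.4, 46.4 and 57.1 CPM in YTHDF1 RIP, against 8.28, 9.61 and 4.87 CPM in YTHDF2 RIP (2.87 ± 0.28). MRPS12, in the small subunit, had 83.5, 86.0 and 99.8 CPM in YTHDF1 RIP, against 21.6, 22.1 and 7.96 CPM in YTHDF2 RIP (2.38 ± 0.36). These 4 genes had an adjusted p of at most 0.00193 (edgeR). Cytosolic ribosomal proteins were called in few cases, 4 higher and 6 lower of 83 (median -0.15). The lower count was 21 without YTHDF2 RIP replicate 3 (median -0.40). It was 54 without both replicates 3 (median -0.75), against 29.3% of all genes lower in that fit.

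**Figure D2:**
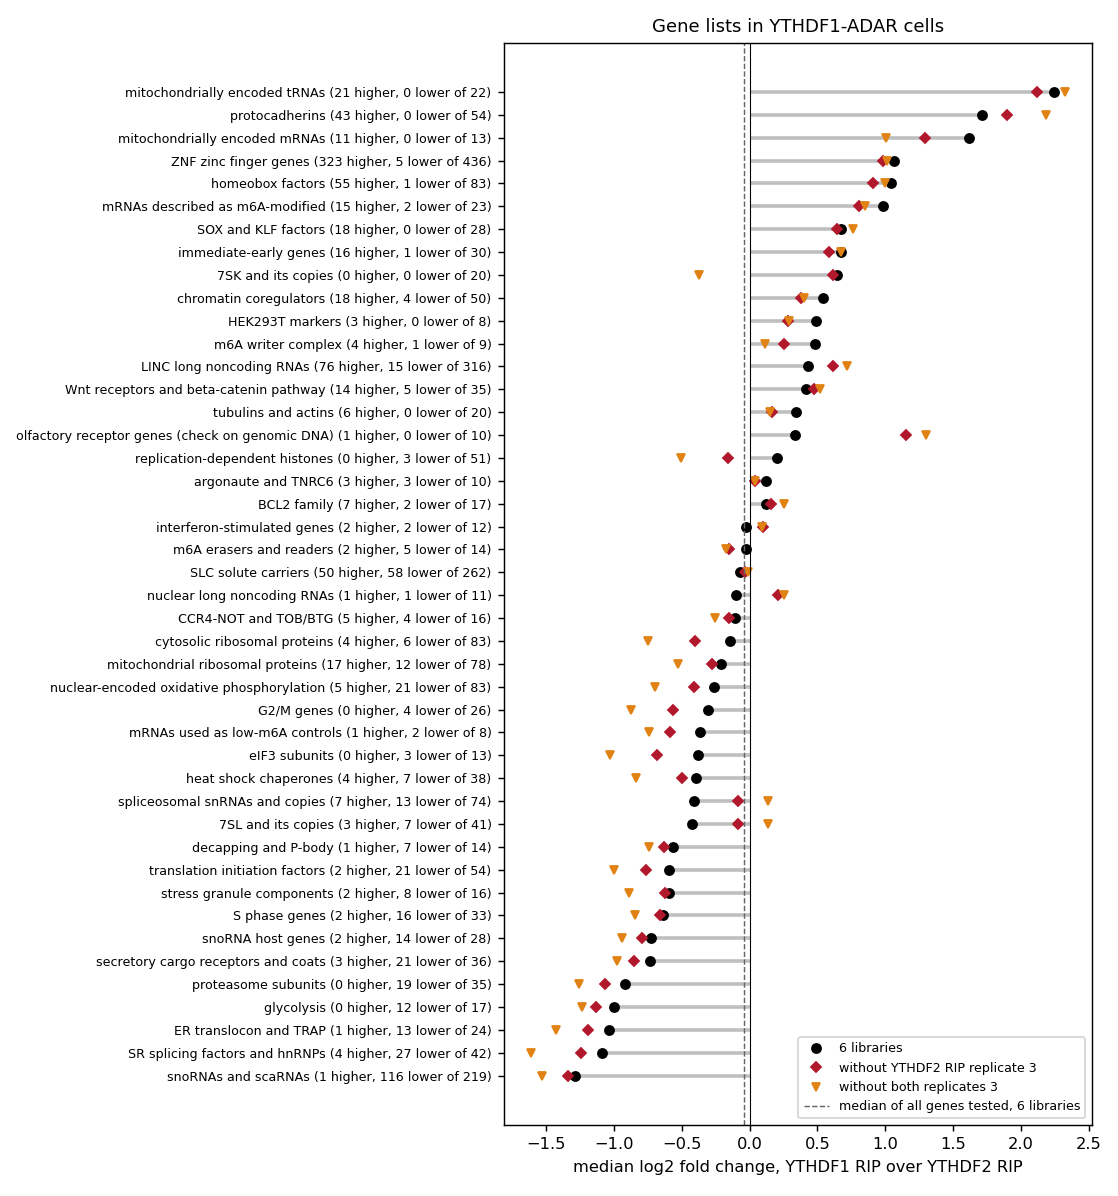
Median log2 fold change of each gene list with at least 8 genes tested, with the counts of genes called higher and lower in YTHDF1 RIP in the labels. Black circles are medians over 6 libraries, red diamonds without YTHDF2 RIP replicate 3, and orange triangles without both replicates 3; the dashed line is the median of all genes tested (-0.04). Mitochondrial RNAs, protocadherins, ZNF and homeobox genes lie at medians above 1. SnoRNAs, splicing factors and ER translocon genes lie below -1.0, and glycolysis genes at about -1.0.

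The machinery of m6A and of mRNA fate was itself split. Of 9 writer complex genes, 4 (44.4%) were higher and 1 (11.1%) lower, against 21.2% and 16.4% of all genes (median 0.48). Of the 5 without an uncertain partner, 1 was higher and 1 lower (median 0.35), so a shift of this list is not clear. RBM15, an adaptor that guides the writer complex to RNA, had 415, 386 and 435 CPM in YTHDF1 RIP, against 212, 214 and 169.6 CPM in YTHDF2 RIP (1.05 ± 0.20, adjusted p = 0.00393, edgeR). METTL3, the catalytic subunit, had 38.3, 37.2 and 49.9 CPM in YTHDF1 RIP, against 66.0, 60.2 and 42.6 CPM in YTHDF2 RIP and overlapped between groups (-0.43 ± 0.22, adjusted p = 0.157), as did METTL14 (0.35 ± 0.21, adjusted p = 0.231, edgeR). METTL3 overlaps TOX4 and is uncertain; it passed the test without YTHDF2 RIP replicate 3 (-0.60, adjusted p = 0.0352, edgeR). Among 14 erasers and other readers, 2 (14.3%) were higher and 5 (35.7%) lower, against 21.2% and 16.4% of all genes. IGF2BP1, a reader that stabilises its targets, had 274, 271 and 386 CPM in YTHDF1 RIP, against 944, 791 and 622 CPM in YTHDF2 RIP (-1.34 ± 0.26). FMR1, which represses translation, had 33.4, 28.2 and 62.0 CPM in YTHDF1 RIP, against 123.2, 124 and 107 CPM in YTHDF2 RIP (-1.52 ± 0.29). Both were called with adjusted p of 0.0044 and 0.0047 (edgeR). In FMR1 the YTHDF1 RIP library nearest to the YTHDF2 RIP group was replicate 3.

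In the CCR4-NOT list, which holds 16 genes, 5 (31.2%) were higher and 4 (25%) lower, against 21.2% and 16.4% of all genes. Of the 5 higher genes, 4 were of the TOB/BTG family, adaptors that recruit the deadenylase. TOB1, an antiproliferative member, had 128, 105 and 107 CPM in YTHDF1 RIP, against 25.8, 25.7 and 15.3 CPM in YTHDF2 RIP (2.35 ± 0.24, adjusted p = 0.00112, edgeR). BTG2 had 89.6, 90.1 and 49.99 CPM in YTHDF1 RIP, against 35.7, 29.7 and 24.4 CPM in YTHDF2 RIP (1.35 ± 0.27, adjusted p = 0.00504, edgeR). TOB2 had 225, 206 and 206 CPM in YTHDF1 RIP, against 126, 118 and 84.9 CPM in YTHDF2 RIP (0.95 ± 0.20, adjusted p = 0.00693, edgeR). The TOB2 call was lost without YTHDF1 RIP replicate 1 (adjusted p = 0.0507). Of 14 decapping and P-body genes, 7 were lower and 1 higher (median -0.56), with LSM14B, a P-body protein, at 41.3, 38.1 and 45.6 CPM in YTHDF1 RIP, against 91.4, 100.3 and 105 CPM in YTHDF2 RIP (-1.25 ± 0.17, adjusted p = 0.00147, edgeR). The argonaute and TNRC6 list held 3 higher and 3 lower of 10 (30% each), too few to set apart from the 21.2% and 16.4% of all genes. AGO1, which carries small RNAs, had 84.0, 82.3 and 105 CPM in YTHDF1 RIP, against 222, 199.9 and 200.3 CPM in YTHDF2 RIP (-1.20 ± 0.18). TNRC6C, its silencing partner, had 239.9, 237 and 133 CPM in YTHDF1 RIP, against 75.6, 79.6 and 83.2 CPM in YTHDF2 RIP (1.35 ± 0.25); both had an adjusted p of at most 0.00387 (edgeR). TNRC6C shares counts with TMC6 and is uncertain. Of 54 translation initiation factors, 21 were lower and 2 higher (median -0.59), with EIF4H, a helper of the eIF4A helicase, at 119, 107 and 163 CPM in YTHDF1 RIP, against 631, 463 and 525 CPM in YTHDF2 RIP (-2.05 ± 0.24) and EIF3B, a scaffold of eIF3, at 299.9, 327 and 385 CPM in YTHDF1 RIP, against 1018, 814 and 887 CPM in YTHDF2 RIP (-1.43 ± 0.22). Of 16 stress granule genes, 8 were lower and 2 higher (median -0.59), with G3BP1, which nucleates stress granules, at 134, 119.5 and 203 CPM in YTHDF1 RIP, against 427, 385 and 398 CPM in YTHDF2 RIP (-1.41 ± 0.24). The adjusted p of these 3 genes was at most 0.00301 (edgeR).

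Cell cycle lists differed with all 6 libraries, but hardly without both replicates 3. In that fit 28 of 33 S phase genes were lower and 4 higher (median -0.84). Of 26 G2/M genes, 18 were lower and 2 higher (median -0.88), against 29.3% of all genes lower. The counts that follow are for all 6 libraries unless stated. Of 33 S phase genes, 16 (48.5%) were lower and 2 higher, against 16.4% and 21.2% of all genes (median -0.63), with MCM6, a subunit of the replicative helicase, at 85.2, 94.2 and 117 CPM in YTHDF1 RIP, against 307, 254 and 383 CPM in YTHDF2 RIP (-1.67 ± 0.23). Of 26 G2/M genes, 4 (15.4%) were lower, a share near that of all genes, and 0 higher (8 and 1 without YTHDF2 RIP replicate 3), with MAD2L1, a spindle checkpoint protein, at 15.9, 15.5 and 26.1 CPM in YTHDF1 RIP, against 104, 76.2 and 104 CPM in YTHDF2 RIP (-2.30 ± 0.26). Both named genes had an adjusted p of at most 0.00148 (edgeR). Replication-dependent histones, whose mRNAs lack introns and poly(A) tails, had 3 lower and 0 higher of 51 (median 0.20). H4C2 had 63.3, 55.0 and 110.1 CPM in YTHDF1 RIP, against 381, 233 and 153 CPM in YTHDF2 RIP (-1.75 ± 0.38, adjusted p = 0.00738, edgeR), and its YTHDF2 RIP replicate 3 was lowest of that group. Without both replicates 3, 25 of the same 51 histone genes were lower (median -0.51).

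Noncoding RNAs differed by class. Of 219 snoRNAs and scaRNAs, which guide the modification of ribosomal and spliceosomal RNA in the nucleus, 116 (53.0%) were lower in YTHDF1 RIP and 1 higher (median -1.28; 115 and 7 of the same 219 without YTHDF2 RIP replicate 3, 140 and 19 without both replicates 3). Most lie inside host genes and share their reads: of the 66 without an uncertain partner, 25 were lower and 1 higher. Of 28 snoRNA host genes, 14 were lower and 2 higher, with SNHG17 at 67.97, 54.7 and 74.7 CPM in YTHDF1 RIP, against 292, 233.5 and 158 CPM in YTHDF2 RIP (-1.79 ± 0.26, adjusted p = 0.0017, edgeR). The share of counts in snoRNAs and scaRNAs did not follow the fold changes, at 0.283%, 0.157% and 0.0801% in YTHDF1 RIP and 0.174%, 0.128% and 0.645% in YTHDF2 RIP. Of 316 LINC RNAs, 76 (24.1%) were higher with all 6 libraries, a share near the 21.2% of all genes (median 0.43). Only 15 (4.7%) were lower, against 16.4% of all genes. Without both replicates 3, 141 of the same 316 were higher and 21 lower (median 0.72), against 30.6% and 29.3% of all genes. LINC01234 was among the higher ones, at 16.9, 12.6 and 16.3 CPM in YTHDF1 RIP, against 3.84, 4.64 and 3.26 CPM in YTHDF2 RIP (1.96 ± 0.23, adjusted p = 0.00118, edgeR). TUG1, a long noncoding RNA of nucleus and cytoplasm, had 673, 667 and 479.8 CPM in YTHDF1 RIP, against 258, 282 and 289.6 CPM in YTHDF2 RIP (1.13 ± 0.22, adjusted p = 0.00458, edgeR). TUG1 shares counts with an overlapping gene and is uncertain.

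For 3 noncoding RNAs, single libraries set the value. NEAT1, the scaffold of paraspeckles, had 74.7, 68.6 and 41.7 CPM in YTHDF1 RIP, against 95.3, 87.5 and 262 CPM in YTHDF2 RIP, and its call (-1.26 ± 0.43, adjusted p = 0.0454, edgeR) was lost with any of 4 libraries left out (adjusted p up to 0.131), among them YTHDF2 RIP replicate 3 (-0.58, adjusted p = 0.104, edgeR). RMRP, the RNA of the MRP ribonuclease, is annotated as a pair of overlapping genes and thus uncertain, and had 604, 545 and 497 CPM in YTHDF1 RIP, against 194, 135 and 2533 CPM in YTHDF2 RIP. With all libraries it did not pass the test (-0.80 ± 0.93, adjusted p = 0.531, edgeR), and without YTHDF2 RIP replicate 3 it was called higher (1.73, adjusted p = 0.00266, edgeR). MALAT1, a nuclear speckle RNA, had 1052, 2294 and 3971 CPM in YTHDF1 RIP, against 2717, 3190.3 and 1143 CPM in YTHDF2 RIP, so the groups overlapped fully (0.05 ± 0.52, adjusted p = 0.946, edgeR), and its sign changed without YTHDF2 RIP replicate 3 (-0.29, adjusted p = 0.665, edgeR). The 10 olfactory receptor genes with enough counts, a check on genomic DNA since these genes are silent in most cells, summed to 6.70, 9.40 and 5.09 CPM in YTHDF1 RIP and 4.03, 2.88 and 7.35 CPM in YTHDF2 RIP; their part in the results was not tested.

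Genes of few exons were more often higher in YTHDF1 RIP of YTHDF1-ADAR cells. Exons of all isoforms were merged into blocks, which can join exons where an isoform keeps the intron between them. Among 460 protein-coding genes of 1 block, 231 (50.2%) were higher in YTHDF1 RIP and 23 (5.0%) lower, with a median log2 fold change of 0.90. The medians were 0.72 for 551 genes of 2 blocks, 0.43 for 2290 genes of 3 to 5, 0.00 for 4008 genes of 6 to 10, -0.18 for 4611 genes of 11 to 20 and -0.23 for 2868 genes of 21 or more. In the last class 332 (11.6%) were higher and 683 (23.8%) lower. Across all 14788 protein-coding genes, 24.1% were higher and 19.1% lower. The order of the 6 classes was the same without YTHDF2 RIP replicate 3 (medians 0.85 to -0.24) and without both replicates 3 (0.91 to -0.31). Among genes with no uncertain overlap, the medians were 0.87 and 0.91 for 1 and 2 blocks and -0.23 for 21 or more.

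Exonic length alone showed no such spread, with medians of 0.08 for genes up to 1 kb and -0.05 for genes above 8 kb. Within the 3902 genes of 2 to 4 kb, the median was 1.18 for 166 genes of 1 block and -0.55 for 77 genes of 21 or more. Among genes of 4 to 8 kb it was 1.25 for 80 genes of 1 block and -0.32 for 1088 of 21 or more. Up to 1 kb the contrast was smaller, 0.23 for 80 genes of 1 block and -0.48 for 68 of 6 to 10, and without both replicates 3 the first of these medians was -0.089. When genes were ranked by exonic length per block and split into 5 equal classes, the medians were -0.35, -0.16, 0.01, 0.17 and 0.52 from the shortest blocks to the longest. The replication-dependent histones, short genes of mostly 1 block, were not among the higher genes.

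**Figure D3:**
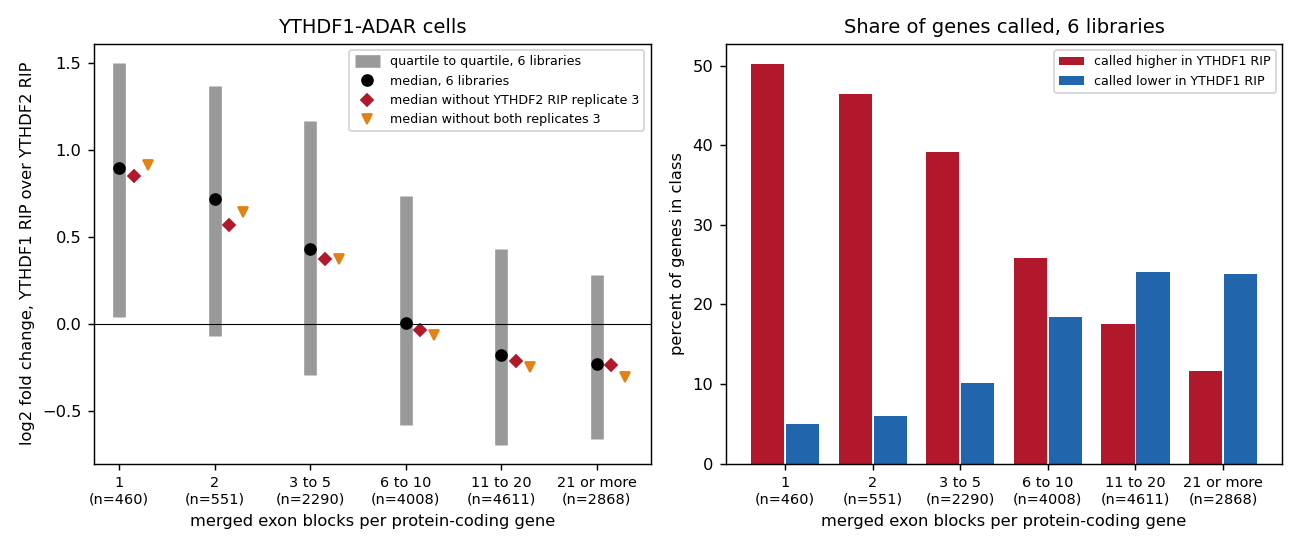
Left, log2 fold change of protein-coding genes by merged exon blocks per gene: circles are medians and grey bars the range between the quartiles with 6 libraries, diamonds the medians without YTHDF2 RIP replicate 3 and triangles without both replicates 3. Right, percent of genes in each class called higher (red) or lower (blue) in YTHDF1 RIP; the higher share falls from 50.2% in genes of 1 block to 11.6% in genes of 21 or more.

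Editing by the fusion was read from the authors' deposited table, which pools the replicates and so allows no test here. A gene's editing level is the percent of reads edited, averaged over its listed sites. Among protein-coding genes called higher in both fits, 73.6% of 3175 had edited sites listed in the authors' deposited table, with a median of 16 sites; among genes called lower in both fits it was 52.7% of 2537, with a median of 2 sites. Genes called in neither fit had a listing in 46.9% of 7313 cases. Among listed genes, the median editing level of the higher genes was 5.31% in YTHDF1 RIP and 5.19% in YTHDF2 RIP, and that of the lower genes 1.96% and 1.74%. Genes shifted toward YTHDF1 RIP thus carried more edited sites at higher levels in both fractions, while each class differed little between fractions. At a mean log2 CPM of at least 4, where sites are easier to detect, the shares were 95.3%, 64.2% and 80.9% for higher, lower and uncalled genes. By gene, SF3B5 had 8 sites at 20.5% in YTHDF1 RIP and 17.3% in YTHDF2 RIP in the authors' deposited table, PPP2R3B had 238 at 5.20% and 4.99%, and CCDC71 had 43 at 5.34% and 6.18%. ODC1 had 1 site in the authors' deposited table, at 0 and 1.06%, EI24 had 2 at 2.16% and 1.84%, and SERINC1 had 18 at 2.35% and 1.59%.

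**Figure D4:**
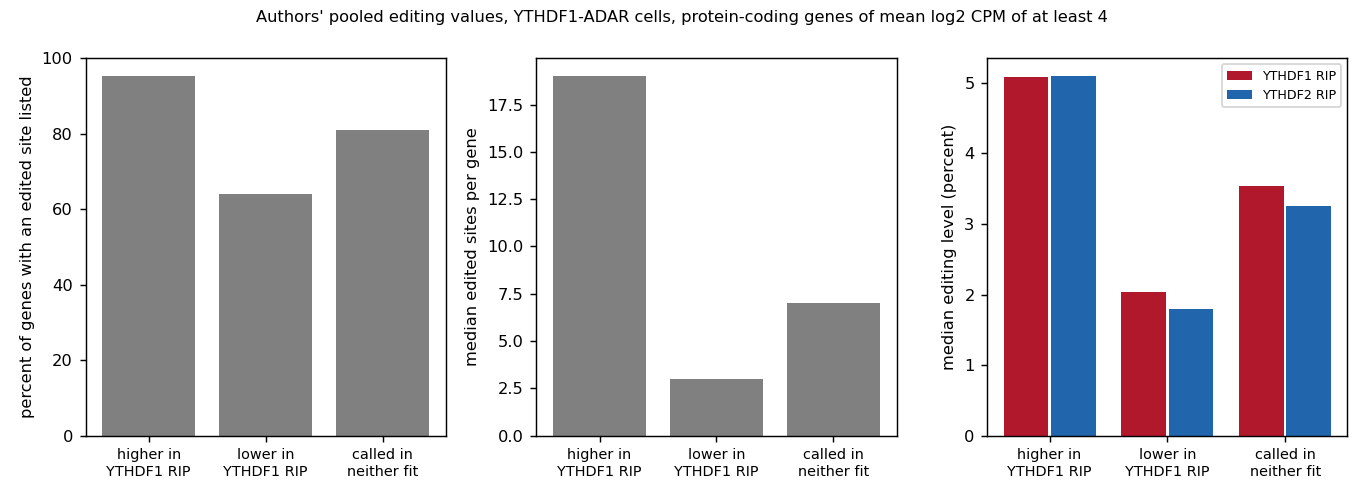
The authors' pooled editing values for protein-coding genes of mean log2 CPM of at least 4, split by whether both fits called them higher in YTHDF1 RIP, lower or neither. The bars give the percent of genes with a listed edited site (95.3, 64.2 and 80.9), the median number of sites in listed genes, and their median editing level in YTHDF1 RIP (red) and YTHDF2 RIP (blue); there are no error bars because replicates were pooled.

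The same antibodies were compared in YTHDF2-ADAR and YTHDF3-ADAR cells, in 12 other libraries. There the YTHDF1 RIP libraries had a different make-up, with 54.1% to 74.2% of counts in protein-coding genes, against 86.1% to 88.0% in YTHDF1-ADAR cells, so line and RNA make-up cannot be told apart. In a fit of all 12 groups, the YTHDF1-ADAR effect differed from the mean of the other lines in 70.2% of 31849 genes, and it was lower in 40.2%. Within the YTHDF2-ADAR line 75.1% of genes were called (32.2% lower), and within the YTHDF3-ADAR line 72.9% (31.3% lower). The lowest genes were low in every line: ODC1 lay at -2.99 in YTHDF1-ADAR cells, against -3.14 (YTHDF2-ADAR) and -2.73 (YTHDF3-ADAR), and its effect did not pass a test of the difference between lines (adjusted p = 0.88, edgeR). Of the 12 lowest genes, 10 did not pass that test, and MFSD1 (-2.19 and -1.67 in the other lines) and SEC11A (-2.65 and -2.34) did. MT-TL2 was higher in all 3 lines, at 2.80 and 3.09 in the other 2 (adjusted p = 0.611 for the difference, edgeR). By contrast, all 9 nuclear protein-coding genes highest in YTHDF1-ADAR cells passed the test of the difference, and 8 of them had negative values in both other lines. Negative values were common there: the median of all protein-coding genes was -0.57 (YTHDF2-ADAR) and -0.55 (YTHDF3-ADAR). Of the 8 genes, FOXA1 (-0.10 and -0.37) lay above these medians and the others below. SF3B5 lay at -0.80 and -0.75 there and LSM10 at -0.71 and -1.03, while PPP2R3B lay at 1.44 and 2.03. The median of ZNF genes was -0.24 (YTHDF2-ADAR) and -0.23 (YTHDF3-ADAR), negative but above that of all protein-coding genes. That of protocadherins was -1.48 and -0.58, the latter near that of all protein-coding genes, and that of snoRNAs and scaRNAs 2.94 and 2.21. Glycolysis genes (-1.96 and -1.68) and proteasome genes (-1.06 and -1.01) had negative medians in these lines, as in YTHDF1-ADAR cells. The order of the exon block classes ran the other way there, with medians of -0.96 and -0.83 for protein-coding genes of 1 block and -0.21 and -0.24 for genes of 21 or more.

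**Figure D5:**
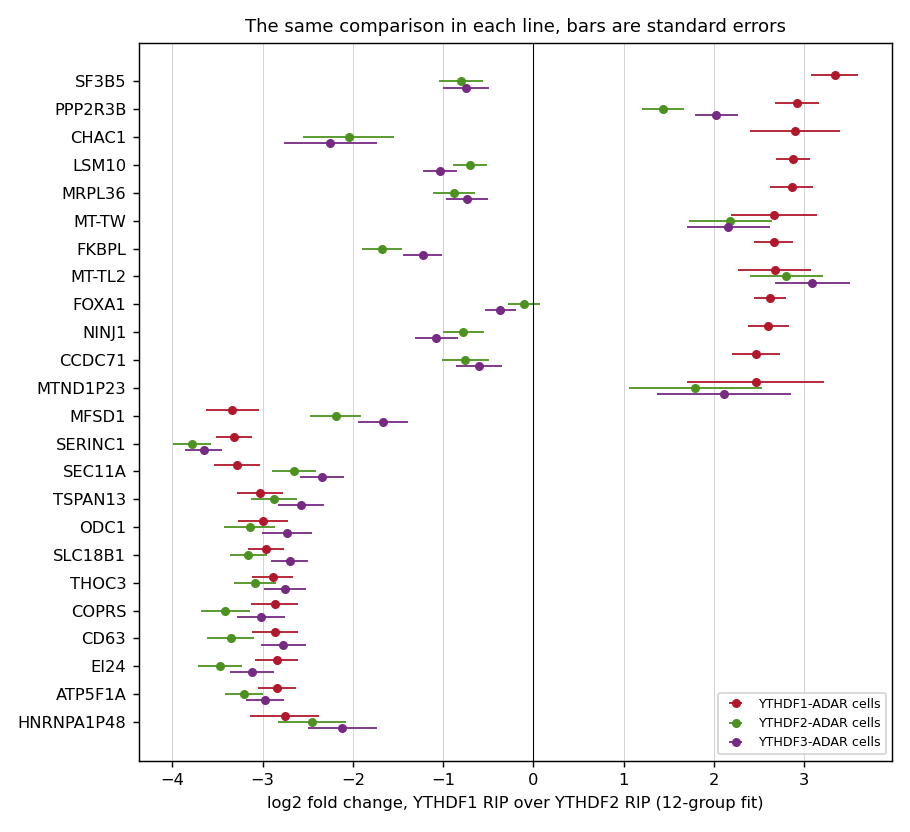
Log2 fold change of YTHDF1 RIP over YTHDF2 RIP in each line, from the fit of 12 groups, for the 12 highest and 12 lowest genes; bars are standard errors. The 12 lowest genes are negative in the 3 lines, and of the 12 highest genes PPP2R3B, MT-TW, MT-TL2 and MTND1P23 are positive in the 3 lines and the other 8 in YTHDF1-ADAR cells alone.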

How the data were processed

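RNA was sequenced from 3 YTHDF1 RIP and 3 YTHDF2 RIP samples of doxycycline-treated HEK293T YTHDF1-ADAR cells, grouped as labelled. Per the labels' protocols, lysates went through RIP and libraries were made after DNase treatment and rRNA depletion with a directional kit. No label says that replicates were grown apart, so the p-values here reflect only how far these libraries differ.

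The authors used STAR 2.7.7, featureCounts 2.0.1, DESeq2 and the GRCh38/hg38 build, per the submitters' processing notes. The deposited counts, per the file headers, follow Ensembl release 102, ignore strand and keep multi-mapping and multi-overlapping reads, so copies and overlapping or antisense partners share counts. Genes were called uncertain where a gene with an overlapping exon had a mean count of its own above 10% of theirs. How many reads such genes shared was not measured. The table has 60675 genes; symbols were found for 40818 in the authors' deposited comparison table and for 1276 in a reference table, and 18581 stayed without. A row for Apobec1 was left out (1 row), and 0 count columns were unused. The authors' deposited editing tables give a score per gene with replicates pooled; 100 times the score over the number of sites, a percent, was used as editing level. Their depth is unknown, and their adjusted p-values, made by the authors, are not reported.

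Genes kept by filterByExpr were scaled by TMM and fitted on the 6 libraries with edgeR 4.0.16 (estimateDisp, robust glmQLFit, glmQLFTest; R 4.3.3), adjusted by Benjamini-Hochberg at 0.05. Total counts ran from 15.9 to 33.5 M, and precision is given as the standard error. The difference between lines came from one fit of 12 groups. The fit was tested on simulated data. Alternatives were DESeq2 1.42.0 (size factors and test), other scalings and filters, limma 3.58.1 voom with quality weights, a replicate block and leaving out libraries.

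The text names the genes of the 12 highest and the 12 lowest fold changes that had a symbol, were called with and without YTHDF2 RIP replicate 3, did not overlap between groups, had a mean log2 CPM of at least 4 and no uncertain overlap. From each of 48 gene lists up to 4 called members were eligible (2 of highest level where none was called), and 14 genes were always read. Members, lists and tests were chosen with earlier results of these data known. Of the lists, blood markers had 0 calls among 2 tested genes, fibroblast markers 2 lower among 3, HEK293T markers 3 higher among 8, interferon-stimulated genes 2 higher and 2 lower among 12, and 7SL copies 3 higher and 7 lower among 41. Spliceosomal snRNA copies had 7 higher and 13 lower among 74, and 7SK copies 0 among 20. Heat shock chaperones had 4 higher and 7 lower among 38, and eIF3 subunits 3 lower among 13. Tubulins and actins had 6 higher among 20, the nuclear long noncoding RNAs 1 higher and 1 lower among 11, and olfactory receptors 1 higher among 10. Y RNA, vault, RNase P and MRP RNAs had 0 calls among 3.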

Additional observations from a re-analysis of the deposited data

Results flagged for a closer look

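The effect of YTHDF1 RIP over YTHDF2 RIP in YTHDF1-ADAR cells differed from the mean effect in the other 2 lines for 22 of the 38 genes named by fold change or always read, by the difference itself in edgeR's fit of 12 groups (Benjamini-Hochberg-adjusted p from 2.23e-15 to 0.0152). Values are differences of log2 fold changes, YTHDF1-ADAR minus the other lines, with their standard error. In 70.2% of all 31849 genes tested the difference was called. YTHDF1 RIP from YTHDF2-ADAR and YTHDF3-ADAR cells stands apart in RNA make-up, and line and make-up cannot be told apart.

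Among the highest genes the difference was positive for SF3B5 (4.11 ± 0.31), PPP2R3B (1.19 ± 0.28), CHAC1 (5.05 ± 0.62), LSM10 (3.74 ± 0.23), MRPL36 (3.67 ± 0.28), FKBPL (4.11 ± 0.27), FOXA1 (2.86 ± 0.21), NINJ1 (3.53 ± 0.28) and CCDC71 (3.15 ± 0.32). Among the lowest genes it was negative for MFSD1 (-1.40 ± 0.34) and SEC11A (-0.79 ± 0.29). Of the fusion and editing genes, it was 2.78 ± 0.23 for YTHDF1, 1.43 ± 0.22 for YTHDF2, 1.93 ± 0.24 for ADARB1 and 1.92 ± 0.19 for ADAR. For ADARB1 the mean of the other lines joins opposite effects, 1.19 in YTHDF2-ADAR cells and -1.72 in YTHDF3-ADAR cells. Its effect in YTHDF1-ADAR cells was 1.67 in the same fit. The other genes were SON (1.80 ± 0.25), CREBBP (1.44 ± 0.22), ACTB (2.09 ± 0.28), MYC (2.56 ± 0.22), GAPDH (1.67 ± 0.31), METTL3 (-0.66 ± 0.18) and MALAT1 (-1.72 ± 0.55).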

How the results depend on the processing

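Other scalings, tests and filters kept most calls: the share of the 8857 calls found with the same sign ran from 85.6% (no filter) to 99.8% (limma voom). With 1 library left out it ran from 55.5% (without YTHDF1 RIP replicate 1) to 92.3% (without YTHDF1 RIP replicate 3), and it was 68.3% with a replicate block. Under all of these settings 0 called genes changed sign. Leaving out 1 library gave 2874 to 5341 higher and 2083 to 4557 lower genes, and a median of all genes from -0.065 to 0.023. The lower genes numbered 7228 by limma voom with quality weights, 5996 with all 12 groups in the fit and 6962 without both replicates 3. The median was -0.074 with DESeq2 size factors, -0.091 with total counts, -0.085 with upper quartile scaling, -0.078 with no filter, -0.075 with the DESeq2 test, -0.10 with TMM from protein-coding genes, -0.13 with 12 groups, 0.0025 by limma voom and 0.0081 without both replicates 3. The genes whose effect was lower than in the other lines numbered 6592 at a mean of at least 1 CPM. With at least 5 edited sites, median editing was 5.21% and 5.20% in YTHDF1 and YTHDF2 RIP for higher genes and 2.85% and 2.59% for lower genes. MALAT1 turned negative by limma voom (-0.83), without YTHDF1 RIP replicate 3 (-0.50), without YTHDF2 RIP replicate 3 (-0.29) and without both (-0.83), and leaving out 1 library gave -0.50 to 0.38. Of 170 called genes read, 145 kept their calls with each library left out and 25 did not. The cause of these shifts was not tested.

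The deviations of same-numbered libraries from their group means correlated at -0.063, -0.276 and -0.378, and none correlated best with its own number. With 3 libraries per group and both replicates 3 standing apart, these values cannot show whether the replicate numbers pair the libraries. With the replicate number as a block the lower genes numbered 2454, and 7366 when YTHDF2 RIP replicate 3 was left out too, with a median of 0.013. MALAT1 lay at -0.061 (adjusted p = 0.957) and -0.93 (adjusted p = 0.00698, edgeR) in these fits, so it was called lower in the latter. Depth limits the genes of low counts: YTHDF2 RIP replicate 3 had 15.9 M counts, the fewest of the 6 libraries.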

Other observations

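Tubulin and actin genes had 6 higher (30%) and 0 lower of 20 in YTHDF1 RIP, against 21.2% and 16.4% of all genes (median 0.34). The 4 called members of largest change were the beta tubulins TUBB4B, TUBB2A, TUBB2B and TUBB3, subunits of microtubules. TUBB2A had 122.99, 113 and 112 CPM in YTHDF1 RIP, against 65.6, 60.5 and 29.6 CPM in YTHDF2 RIP (1.16 ± 0.28, adjusted p = 0.0126, edgeR). Without YTHDF1 RIP replicate 1 all 4 calls were lost (adjusted p = 0.0514, 0.0573, 0.0601 and 0.0668 in the order named), and that of TUBB4B also without YTHDF1 RIP replicate 3. TUBB4B, TUBB2B and TUBB3 share counts with overlapping genes and are uncertain. Heat shock chaperones had 4 higher and 7 lower of 38, with HSPD1, the mitochondrial chaperonin, at 229, 222 and 537 CPM in YTHDF1 RIP, against 1520.3, 1387 and 1853 CPM in YTHDF2 RIP (-2.27 ± 0.38, adjusted p = 0.00278, edgeR).

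COL1A1, a collagen listed as a fibroblast marker, had 19.5, 19.96 and 17.9 CPM in YTHDF1 RIP, against 37.8, 33.8 and 30.2 CPM in YTHDF2 RIP (-0.83 ± 0.18, adjusted p = 0.0067, edgeR). Interferon-stimulated genes had 2 higher and 2 lower of 12 (16.7% each), near the 21.2% and 16.4% of all genes. USP18, which trims the ubiquitin-like ISG15 from proteins, lay at 6.95, 8.01 and 10.47 CPM in YTHDF1 RIP, against 20.5, 17.7 and 13.5 CPM in YTHDF2 RIP (-1.02 ± 0.24, adjusted p = 0.0104, edgeR). The USP18 call was lost without YTHDF1 RIP replicate 1 (adjusted p = 0.0537). The 7SK RNA gene RN7SK, uncertain because a second annotated gene overlaps it, ranged from 326 to 2949 CPM in YTHDF1 RIP and 309.6 to 977 CPM in YTHDF2 RIP and did not pass the test (0.92 ± 0.75, adjusted p = 0.37, edgeR).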
